A study of Mus musculus with 2 samples.

Results

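The hairpins named Mir297, Mir466, Mir467 and Mir669 form a rodent microRNA group, most of it packed as near-identical copies into a single intron of the gene Sfmbt2. Members were all annotated microRNA genes whose GENCODE M21 name starts with Mir297, Mir466, Mir467 or Mir669 followed by nothing or a letter. This gave 80 of the 2202 genes in the tables, of which 71 lie on chromosome 2 and 9 elsewhere. Their levels were read in adrenal gland tissue, whose cortex makes steroid hormones and whose medulla makes catecholamines. Both libraries came from male B6CASTF1/J mice aged 25 days, which are first-generation hybrids of C57BL/6J and CAST/EiJ, without treatment or a second group. The labels give each library an animal number of its own but a common donor entry, so the spread over n = 2 may be technical.

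MicroRNAs are cut from hairpin transcripts and guide silencing complexes to messenger RNAs, chiefly through their seed, bases 2 to 8 of the mature strand. Sfmbt2 encodes a Polycomb group protein, and in mice it is expressed from the paternal allele in extraembryonic tissue. Its intronic hairpins are known from embryonic stem cells and placenta, and many carry UG or CA repeats in their stems. By naming convention, a trailing number (Mir669a-4, Mir669a-5) marks genomic copies that encode the same mature product, and letters mark related products. A letter does not ensure a sequence of its own here, since every stretch of 20 bases in Mir466e also occurs in another annotated hairpin.

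The repeat character of the group is visible in the mature sequences. Mature sequences from RefSeq (GRCm38.p6) were matched to 8 members, which lie outside chromosome 2, and they are shown to let a reader see the UG and CA runs that members share with each other. Capitals mark the seed, and each is written 5′ to 3′.
mmu-miR-466i-3p: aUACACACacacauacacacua
mmu-miR-466j: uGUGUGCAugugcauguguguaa
mmu-miR-466k: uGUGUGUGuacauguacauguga
mmu-miR-466q: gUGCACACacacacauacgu
mmu-miR-467f: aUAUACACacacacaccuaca
mmu-miR-467g: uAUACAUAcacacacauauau
mmu-miR-467h: aUAAGUGUgugcauguauaugu
mmu-miR-669n: aUUUGUGUguggaugugugu

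The 8 mature sequences had 8 different seeds, so no pair of them shared a seed exactly. The seed letters nevertheless recurred across the group, widely for some seeds and in few members for others. The M21 hairpin sequences were searched on the hairpin's own strand. The seed of miR-466k, GUGUGUG, occurred in 52 of the 80 member hairpins (65%) and in 7.45% of the other annotated hairpins. That of miR-466i-3p, UACACAC, occurred in 49 members (61.3%) against 6.17%, and that of miR-467g, AUACAUA, in 63 members (78.8%) against 3.77%. The seed of miR-466j occurred in 44 members (55%) against 2.92%. Fewer members held the seeds of miR-466q (13, or 16.25% against 2.12%), miR-467f (12, or 15% against 4.76%) and miR-669n (10, or 12.5% against 2.21%). The seed of miR-467h, UAAGUGU, was found in 2 members (2.5% against 0.566%). Such a match places letters in a hairpin and says nothing of which strand is cut or used.

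The Mir466k hairpin, on chromosome 3 (chr3:85467377-85467498, plus strand, GRCm38.p6), shows a long UG run that continues into the mature strand, which is given in capitals.
Mir466k: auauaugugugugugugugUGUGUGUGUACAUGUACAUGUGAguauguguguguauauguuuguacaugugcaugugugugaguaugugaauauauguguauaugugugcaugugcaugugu
Across all hairpins the motif TGTGTGT (as DNA, own strand only) occurred in 66 of 80 members (82.5%) and in 9.43% of the other genes. The motif ACACACA occurred in 51 members (63.8%) against 7.96%, and 37 members (46.25%) held both motifs against 6.13%. Alternating UG runs reached 28 bases among the 9 members outside chromosome 2 (median 14), while among the 71 members that gathered no reads the median was 8, as it was among the 9 that did.

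Replicate 1 had 3588361 and replicate 2 had 4541373 sense-strand reads assigned to microRNA genes. The limit taken for a count of 0 was 3 counts, worth 0.836 and 0.661 counts per 1000000 such reads (CPM), a limit of counting error only that does not hold for reads discarded before counting. Reads with more than 1 mapping place, which no gene was credited with, made up 31.6% and 27.0% of the input reads. Replicate 2 stands apart because the hepatocyte hairpin Mir122 took 19.8% of its counts, against 0.0892% in replicate 1. The muscle hairpin Mir206 differed the other way, with 987 CPM in replicate 1 and 0.661 CPM in replicate 2. Levels are therefore also given on totals without Mir122. Of the endocrine markers 4 of 4 were detected, led by Mir375 at 33380 and 29004 CPM. In whole tissue, fewer cells of a type and less RNA per cell cannot be told apart.

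Counts were assigned to 9 of the 80 hairpins, and all 9 lie in the Sfmbt2 intron on chromosome 2. Those with at least 10 counts in both libraries, called detected, were Mir467d, Mir467e, Mir669c, Mir669o, Mir467c, Mir669l and Mir669e. These 7 are 8.75% of the members, where 16.0% of all genes were detected. Any count at all was seen for 11.3% of the members and for 34.0% of all genes. The remaining 71 members had 0 counts in both libraries.

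Together the members held 2932 counts in replicate 1 and 5141 in replicate 2. As a share of all sense counts this was 0.0817% (exact 95% interval 0.0788 to 0.0847) and 0.113% (0.110 to 0.116), or 975 CPM ± 223 (SD, n = 2). Without Mir122 in the totals the summed levels were 818 and 1411 CPM. The group as a whole was 1.39-fold higher in replicate 2 (1.32 to 1.45). That direction rests on Mir467d, since the other 79 members summed to 600.3 CPM in replicate 1 and 536 CPM in replicate 2, 0.894 of the former (0.843 to 0.947). With Mir122 out of the totals those 79 were 1.11-fold higher in replicate 2 (1.05 to 1.18).

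Among the Mir467 hairpins, 3 of 17 were detected, and these 3 held most of the group's counts. Reads with more than 1 mapping place were not counted, so the source of the group's reads as a whole is not known. Mir467d (ENSMUSG00000077021.2, chromosome 2, 10507630 to 10507714 on mm10, plus strand) had 778 counts in replicate 1 and 2705 in replicate 2. Its level was 217 CPM (202 to 233) in replicate 1 and 596 CPM (573 to 619) in replicate 2, so the SD of 268 CPM was over a mean of 406 CPM. Mir467e (ENSMUSG00000076948.2, 10505721 to 10505807), the nearest detected hairpin upstream, had 1011 and 1189 counts. It stood at 282 CPM (265 to 300) and 262 CPM (247 to 277), and these intervals overlapped. Mir467c (ENSMUSG00000077049.2, 10473931 to 10474027), on the other side of the copy array, had 126 and 178 counts, or 35.1 and 39.2 CPM.

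Mir467d and Mir467e changed places between the libraries. In replicate 1 Mir467d had 0.770 times the counts of Mir467e (0.700 to 0.846), and in replicate 2 it had 2.28 times as many (2.12 to 2.44). Mir467d made up 26.5% of all member counts in replicate 1 (24.9 to 28.2) and 52.6% in replicate 2 (51.2 to 54.0). These within-group values do not depend on the library total. The other Mir467 members, among them all 10 numbered copies of Mir467a and the related Mir467b, had no counts.

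Of the 30 Mir669 hairpins, 4 were detected and Mir669h had a few reads. Mir669c (ENSMUSG00000076118.1, 10509296 to 10509404) had 400 and 536 counts, giving 111 CPM and 118 CPM. Mir669o (ENSMUSG00000077086.1, 10514300 to 10514395) had 394 and 400 counts, giving 110 CPM and 88.1 CPM. In replicate 1 the pair did not differ beyond counting error, with a count ratio of 1.02 (0.881 to 1.17). In replicate 2 Mir669c was ahead, at 1.34 (1.18 to 1.53).

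The remaining Mir669 members with reads were lower. Mir669l (ENSMUSG00000076959.1, 10468971 to 10469068) had 145 and 86 counts, or 40.4 and 18.9 CPM. Mir669e (ENSMUSG00000080653.1, 10467495 to 10467613) had 69 and 27 counts, or 19.2 and 5.95 CPM, and was the lowest member to pass the minimum of 10 counts. Both sit near the upstream end of the group and were lower in replicate 2. Just outside the minimum were Mir669h with 4 and 10 counts and Mir466n with 5 and 10 counts. Mir466n was the only Mir466 hairpin of 28 with a read, and the 5 Mir297 hairpins had none.

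**Figure D1:**
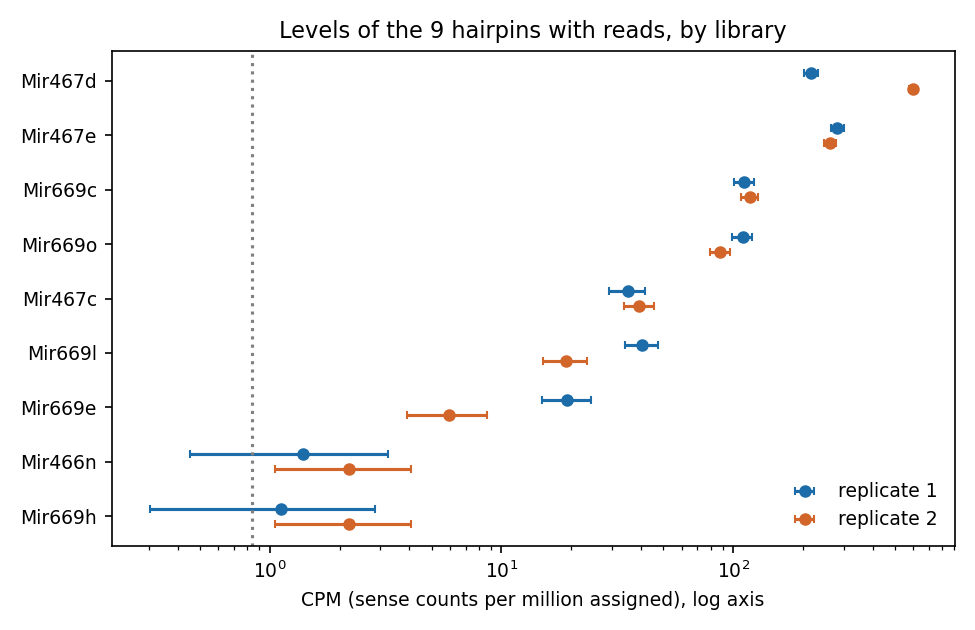
Level of the 9 hairpins with reads in CPM (log axis), 1 point per library, with exact 95% intervals as bars and a dotted line at 0.836 CPM, the worth of 3 counts in replicate 1. Mir467d moves from 217 to 596 CPM between replicates 1 and 2, while Mir467e stays at 282 and 262 CPM.

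In order of mean level the 9 hairpins ran Mir467d, Mir467e, Mir669c, Mir669o, Mir467c, Mir669l, Mir669e, Mir466n and Mir669h. Each read stands for a whole mature strand, so levels were not divided by hairpin length. They do depend on how much of each hairpin's reads could be placed. Of the 8 neighbouring pairs in that order, 4 had CPM ranges over the 2 libraries that overlapped. These were Mir467d with Mir467e, Mir467c with Mir669l, Mir669l with Mir669e, and Mir466n with Mir669h. Such ranges ignore that each pair was measured in the same library. Within each library Mir669l exceeded Mir669e beyond counting error, at 40.4 against 19.2 CPM and 18.9 against 5.95 CPM. The ranges of Mir669c and Mir669o did not overlap, yet the pair did not differ beyond counting error in replicate 1. Mir467d ranked 113 and Mir669e ranked 286 among the 352 detected genes by mean CPM. The median detected member had 98.9 CPM, and the median of all detected genes was 111 CPM.

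To see which members differed between the libraries beyond counting error, the counts of every detected gene were put to an exact binomial test (two-sided) against the totals, with Benjamini-Hochberg adjustment over all 352. It compares 2 libraries and not conditions. Of the 7 detected members 4 passed at 0.05, 1 higher in replicate 2 and 3 higher in replicate 1, where 67.0% of all detected genes passed, 30.4% and 36.6% by direction. Mir467d was 2.75-fold higher in replicate 2 (2.54 to 2.98, exact binomial test, adjusted p = 3.05e-158). Mir669e stood at 0.309 of its replicate 1 level (0.190 to 0.489, adjusted p = 1.16e-07) and Mir669l at 0.469 (0.355 to 0.616, adjusted p = 4.62e-08). Mir669o stood at 0.802 (0.696 to 0.924, adjusted p = 0.00371). The ratio was 0.929 for Mir467e (0.854 to 1.01), 1.06 for Mir669c (0.928 to 1.21) and 1.12 for Mir467c (0.884 to 1.41), with adjusted p of 0.127, 0.481 and 0.446.

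The calls for the smaller differences turned on the total. With Mir122 out of the totals 6 members passed, 4 higher in replicate 2 and 2 higher in replicate 1, where 71.3% of all detected genes passed, 50.0% and 21.3% by direction. Mir467d was then 3.42-fold higher in replicate 2 (3.16 to 3.71), and Mir669e and Mir669l stood at 0.385 and 0.583 of their replicate 1 levels. Mir669o stood at 0.999 (0.867 to 1.15), and Mir467e was 1.16-fold higher in replicate 2 (1.06 to 1.26). Mir669c and Mir467c now passed as well, 1.32-fold (1.16 to 1.504) and 1.39-fold (1.10 to 1.76) higher in replicate 2, with adjusted p of 5.02e-05 and 0.00728 by the same exact test. The median log2 ratio of the 7 was -0.11 on all counts and 0.21 without Mir122, beside -0.04 and 0.28 for all 352 detected genes. The liver list (Mir122, Mir192, Mir194-1 and Mir194-2, 3 of 4 detected, none at 0) summed to 949 CPM in replicate 1 and 198916 CPM in replicate 2. The striated muscle list (0 of 5 detected, Mir133a-2 at 0) summed to 993 and 0.661 CPM. The part of RNA from these tissues in the Mir467d difference was not tested.

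**Figure D2:**
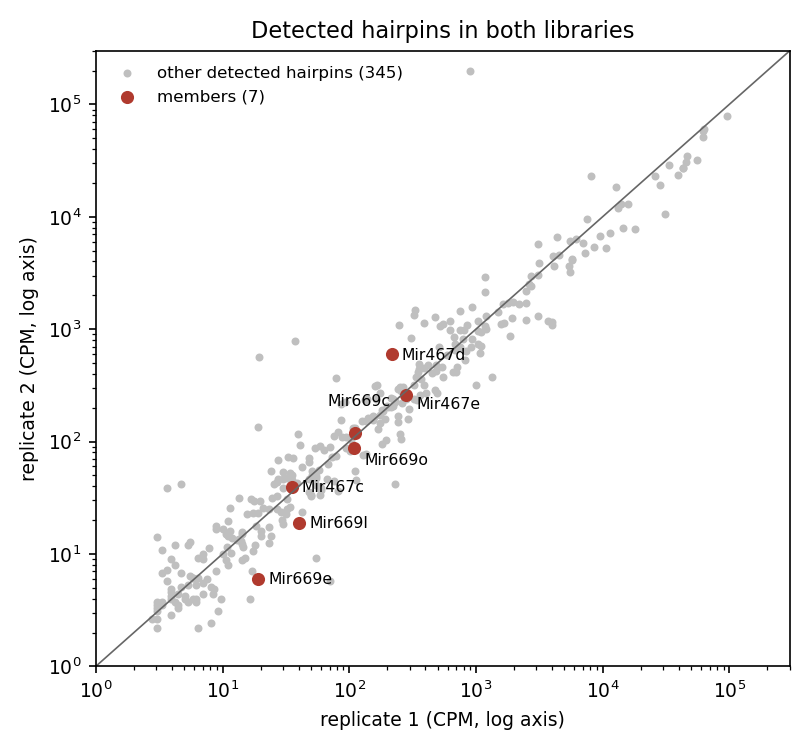
CPM of the 352 detected genes in replicate 1 against replicate 2 (log axes), with the 7 detected members in red and the line of equal levels. Mir467d lies above the line at 217 and 596 CPM, and Mir669l and Mir669e lie below it.

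The hairpins with reads flank a long array of copies without counts. Sfmbt2 (ENSMUSG00000061186.15) spans 10370510 to 10595253 on the plus strand of chromosome 2. All 71 chromosome 2 members lie on its strand within 1 intron of 62472 bases (10461473 to 10523944), which is intron 11 of the principal transcript Sfmbt2-205 and intron 10 of Sfmbt2-201. None touches an annotated Sfmbt2 exon. From first to last they cover 51.6 kb (10466663 to 10518279).

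Going downstream, the first 13 members end with Mir467c and include 3 detected hairpins. The next 38 members, in the 31.7 kb between Mir467c and Mir467e, had no count in either library. The last 20 members start with Mir467e and include 4 detected hairpins and the weak Mir466n and Mir669h. This downstream stretch of 12.6 kb gave 88.4% of the member counts in replicate 1 (87.2 to 89.5) and 94.3% in replicate 2 (93.7 to 95.0). The upstream stretch gave 11.6% (10.5 to 12.8) and 5.66% (5.04 to 6.33), so its share was smaller in replicate 2.

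That array is built of repeated units. Copies of Mir467a started at a median of 2462 bases from each other, copies of Mir669a at 2457 and copies of Mir466b at 2470. Of the 38 hairpins of the array, 31 had no stretch of 20 bases that was not also in another annotated hairpin. Identical hairpin sequences were found in 6 sets holding 24 members, the biggest being 9 copies of Mir669a (Mir669a-4 to Mir669a-12), and all 24 had 0 counts.

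**Figure D3:**
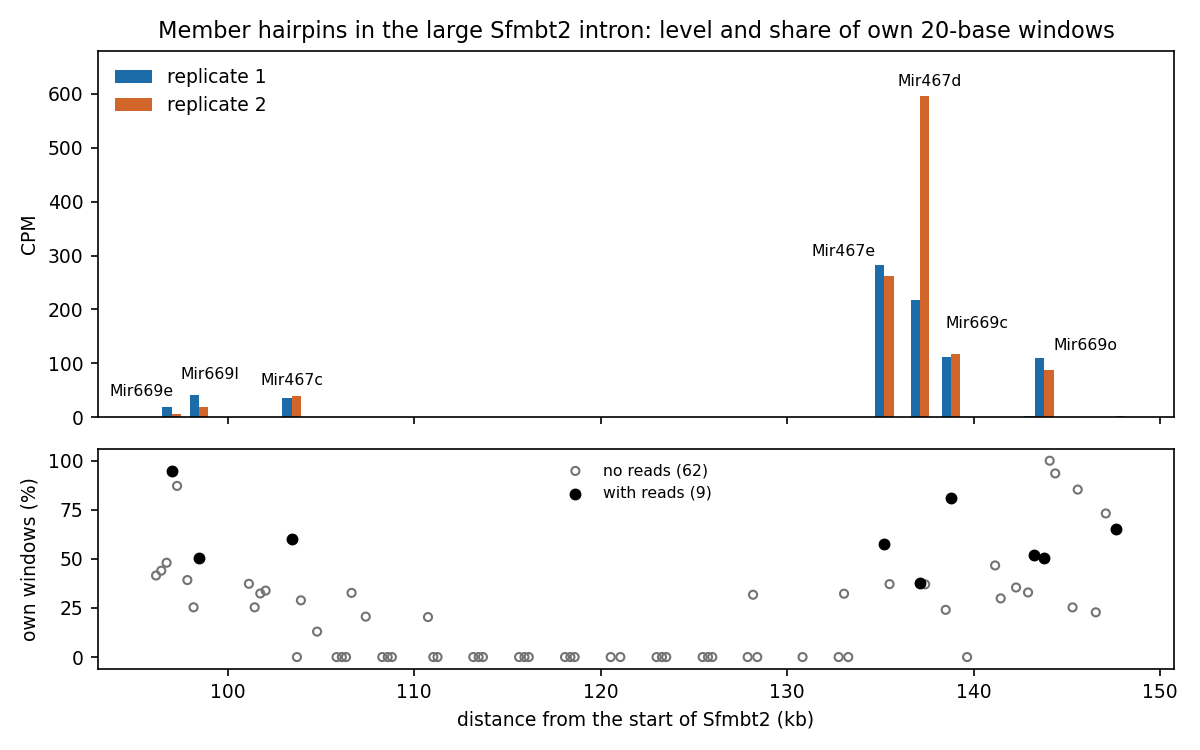
Upper panel: CPM of the 71 chromosome 2 members by distance from the start of Sfmbt2 in kb, 1 bar per library. Lower panel: share of each hairpin's 20-base windows that no other annotated hairpin holds, filled for the 9 members with reads. The 38 members between Mir467c and Mir467e have no bar, and 31 of them sit at 0% own windows.

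Sequence sharing was described by counting, for each hairpin, the 20-base windows that occur in no other annotated hairpin on either strand. These windows run over the whole hairpin, and no mature sequence was matched to a chromosome 2 member. An own window therefore need not lie in a mature strand, and does not show that a read can be placed. At least 1 such window was shared with another hairpin by 78 of the 80 members, the exceptions being Mir466g and Mir669n. No window of their own was left to 32 members, and all 32 had 0 counts. At least 1 own window was present in 48 members, and 9 of these (18.8%) had reads. Over the genes that are not members, 711 of 1816 with an own window had reads (39.2%). The 2 shares are not matched for sequence sharing. A median of 42.8% of windows were own in the 48 members, against 100% over all 2122 genes that are not members. Over all genes, lack of an own window did not always go with 0 counts. Of 338 such genes, which include the 32 members, 29 had reads and 18 were detected. In this count a hairpin annotated opposite another at the same place can also lose its windows, although its reads have a single place. No member is of that kind, and how many of the 338 genes are was not counted.

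All 9 members with reads had own windows, but more windows did not go with a higher level. They had 25 to 95 own windows (median 40), and the highest, Mir467d, had the fewest, 25. The lowest detected member, Mir669e, had the most, 95, and shared bases with 1 other hairpin, where Mir467d shared bases with 14 and Mir669o with 56. The 30 chromosome 2 members with an own window and no reads had 11 to 87 such windows (median 25.5).

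By subfamily, reads were seen in 3 of the 4 chromosome 2 Mir467 hairpins with an own window, the fourth being Mir467b. They were seen in 5 of 16 such Mir669 hairpins, 1 of 14 Mir466 hairpins and 0 of 5 Mir297 hairpins. Mir466g and Mir466h, with 61 and 58 own windows, lie immediately downstream of Mir669o and were at 0. Why they had no counts was not tested. The windows were compared with annotated hairpins alone, and copies elsewhere in the genome were not counted here.

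**Figure D4:**
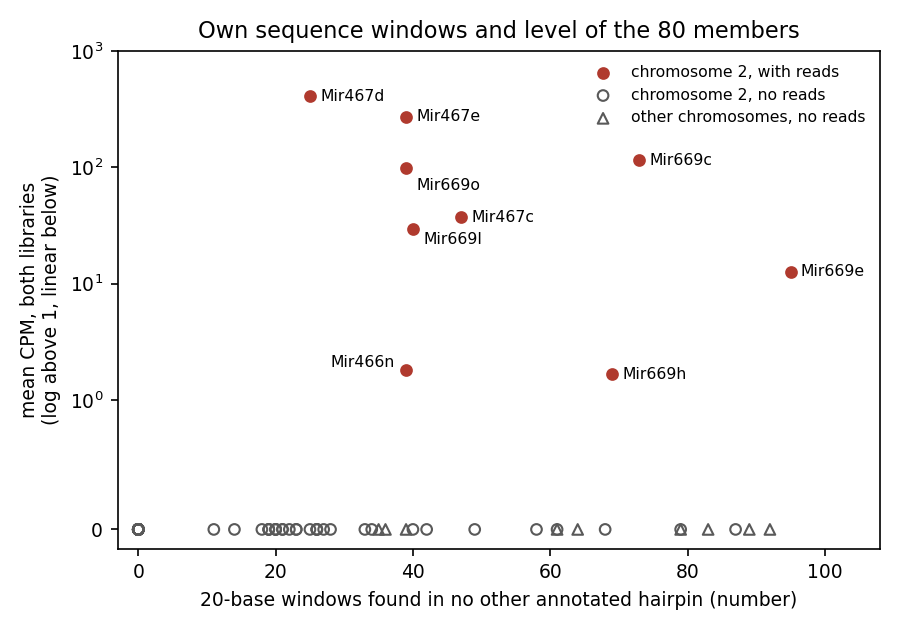
Mean CPM of each of the 80 members (log axis above 1, linear below) against its number of 20-base windows found in no other annotated hairpin, filled for members with reads and triangles for members outside chromosome 2. The 32 members without an own window all lie at 0, and so do 39 of the 48 with such windows.

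The 9 members outside chromosome 2 had 0 counts in both libraries, and each had 35 to 92 own windows. Mir466q lies in an intron of Tnik on the same strand (chromosome 3, 28419943 to 28420018). Mir466k and Mir669n (chromosome 3), Mir467g (chromosome 5), Mir467f (chromosome 11) and Mir466i (chromosome 13) lie in introns of protein-coding genes on the opposite strand. Mir467h, Mir466j and Mir466f-4 lie in no annotated gene. The whole mature sequence of miR-467h was also found in the annotated hairpins Gm25510 and Gm26303.

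All reads at the members were sense. Antisense counts were 0 at all 80, and the either-strand column equalled the sense column at each. No member overlaps a hairpin annotated on the other strand.

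Other hairpins of Sfmbt2 gathered almost no reads. The annotation places 48 further hairpins with Gm names on the same strand within Sfmbt2, and 0 were detected, where 16.0% of all genes were. Of these hairpins 22 had no 20-base window of their own, and 3 of the 26 with such a window had reads. Gm25263 had 3 and 2 counts, Gm25451 had 0 and 5, and Gm22072 had 0 and 1.

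Other large clusters are given for scale, without a test. In the imprinted chromosome 12 cluster from Mir379 to Mir410, 32 of 38 hairpins were detected, with a sum of 25851 CPM ± 4394 (SD, n = 2). In the X chromosome testis cluster 1 of 21 was detected, with 10.7 CPM ± 0.564, below the 975 CPM of the Sfmbt2 group. Hairpins of the Mir290 cluster, which embryonic stem cells and trophoblast express, had 4 of 9 detected and sums of 78.3 and 66.5 CPM, with Mir292b at 0.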

How the data were processed

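MicroRNA sequencing of total RNA from adrenal gland gave 2 libraries of 1 group. The deposited tables hold raw counts per microRNA gene, made by the authors on mm10 with GENCODE M21 per the text files beside them; no source used here gives the aligner or the trimming. The sense column was used, and 4 summary lines per table stayed out of totals. All 2202 identifiers were found in M21. Levels are CPM, with mean and SD over n = 2 and exact (Clopper-Pearson) 95% intervals that cover counting error only, since the reads carry no molecular identifiers. The reads of the libraries were compared by an exact binomial test with Benjamini-Hochberg adjustment. The test was tried on simulated counts that held counting error only, so that trial does not cover other differences between these libraries.

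Members and lists were chosen with earlier results of these data known. Named members were the highest by mean CPM, those called between libraries and those nearest the minimum of 10 counts. A planned split by identical mature sequences could be made for 8 members only, so 20-base windows of M21 hairpins were used instead, a choice made after the data were seen. Marker lists besides the endocrine and Mir290 ones had these sums in replicates 1 and 2: liver 949 and 198916 CPM, striated muscle 993 and 0.661, kidney 106 and 1393, red blood cell 1487 and 1248, leukocyte 1956 and 837, smooth muscle and stroma 49800 and 33037, endothelium 62826 and 60799. Mir192 and Mir194-2, which the liver list also holds, made up 19.5 and 37.6 CPM of the kidney sum in replicate 1 and 569 and 789 CPM in replicate 2, while Mir204 had 48.5 and 35.7 CPM. Mir292a of the Mir290 list was matched to Mir292 of M21 by the other names RefSeq gives. Alternatives were other minimums, totals and columns, edgeR 4.0.16 TMM and DESeq2 1.42.0 factors, and each library left out. Computation used Python 3.11.15, scipy 1.17.1, pandas 2.3.3, numpy 2.4.6, matplotlib 3.10.9 and R 4.3.3.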

Additional observations from a re-analysis of the deposited data

How the results depend on the processing

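The 7 detected members became 9 at a minimum of 3 counts or with no filter and 6 at a minimum of 30, and 7 to 9 with a library left out. The summed level was 0.0975% of counts, 0.0817% to 0.113% with a library left out, and 0.0419% of all input reads. Leaving Mir467d out, a choice made after the data were seen, gave 0.0568%, or 0.0635% with Mir122 out of the totals. The log2 ratio of the summed counts (replicate 2 over 1) was 0.47. It was 0.79 with Mir122 out of the totals, 0.56 on all input reads, -0.16 without Mir467d, and 0.15 without both. Mir467e turned from -0.11 to 0.21 with Mir122 out of the totals. The direction and call of Mir467d, Mir669l and Mir669e held under every alternative in which they were tested, with log2 ratios of 1.43 to 1.77, -1.12 to -0.78 and -1.72 to -1.38; Mir669e could not be tested at a minimum of 30. All member counts lay on chromosome 2 under each alternative tried. That outcome was fixed in advance, since members elsewhere had 0 counts in both libraries and in every column used. Mir466n and Mir669h, with 4 to 10 counts, are limited by depth. No paired analysis was possible because there was 1 group.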
